A study of Homo sapiens with 15 samples.

Results

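The genes described here are the hypoxia-inducible factors (HIFs), the enzymes that sense oxygen for them, and target genes that lie outside the glycolytic enzymes. They were taken as a fixed list of 33 gene symbols. All 33 have a row in the deposited table of read counts, out of 19143 rows, and all 33 passed the filter on low counts in every comparison. The counts come from the liver cancer line MHCC-97H, which was established from a human hepatocellular carcinoma, in 15 RNA sequencing libraries. In the first round of sequencing, 3 libraries each were made from MHCC-97H cells grown in a 2D model, in a 3D model and in an animal model. A further round used cells in the 3D model, with 3 libraries labelled treatment control and 3 libraries after heat treatment. The labels name no genetic change or other agent in any group. They give neither the temperature nor the length of heating, the oxygen level, the kind of 3D material or the host animal. All 15 libraries come from this 1 cell line. Replicates are called biological replicates without naming separate cultures or animals, so the p-values measure the spread between these libraries, which may be technical.

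HIFs are transcription factors made of an alpha subunit, encoded mainly by HIF1A or EPAS1, and a shared beta subunit, ARNT. While oxygen is present, prolyl hydroxylases of the EGLN family mark the alpha subunit, the VHL protein binds the marked subunit, and it is degraded. When oxygen falls, the subunit builds up, enters the nucleus and binds short DNA elements around the core RCGTG (R is A or G) near genes for pH control, vessel growth, iron and glucose handling, mitophagy and the extracellular matrix. This control acts on the alpha protein, so a transcript level of HIF1A or EPAS1 is not a level of HIF activity. Several targets, EGLN3 among them, feed back on the factor.

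The core element was looked for in the promoters that RefSeq gives for these genes. Each promoter entry spans 250 bases before to 50 bases after a transcription start (build GRCh38.p14), and 27 of the 33 members had at least 1 entry of this length that was used, 34 entries in all. ACGTG or GCGTG, on either strand, was found in 27 of these 34 entries, or 79.4%, and in 48.4% of all 35116 promoter entries of the same length. ACGTG alone was found in 41.2% of the member entries and 21.4% of all entries. The palindrome CACGTG holds ACGTG on both strands and so counts on each. A match describes the letters only. The list was made of the factors, their sensors and their targets, so its share of matches is not a result about these data. VHL, VEGFA, NDRG1, BNIP3L, LOXL2 and ANKZF1 are named here without a promoter. Stretches of 150 bases, all upstream of the start, are printed for 8 members with matches. Of these, CA9, ANKRD37, BNIP3, P4HA1 and ANGPTL4 were called higher in 3D than in 2D. PLOD2 and EGLN1 were not called in that comparison, and HIF1A was called lower. Capitals mark ACGTG or GCGTG, or on the printed strand their reverse complements CACGT and CACGC. The stretches lie at chr9:35673778-35673927 (CA9, plus strand), chr4:185396641-185396790 (ANKRD37, plus), chr10:131981974-131982123 (BNIP3, minus), chr10:73096867-73097016 (P4HA1, minus), chr19:8363905-8364054 (ANGPTL4, plus), chr3:146161285-146161434 (PLOD2, minus), chr1:231422288-231422437 (EGLN1, minus) and chr14:61695263-61695412 (HIF1A, plus).
CA9: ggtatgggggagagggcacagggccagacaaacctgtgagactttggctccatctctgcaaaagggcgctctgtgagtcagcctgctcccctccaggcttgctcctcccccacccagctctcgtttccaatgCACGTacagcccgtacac
ANKRD37: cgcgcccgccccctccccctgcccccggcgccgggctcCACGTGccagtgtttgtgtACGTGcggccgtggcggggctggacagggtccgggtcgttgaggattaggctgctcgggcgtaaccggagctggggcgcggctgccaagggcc
BNIP3: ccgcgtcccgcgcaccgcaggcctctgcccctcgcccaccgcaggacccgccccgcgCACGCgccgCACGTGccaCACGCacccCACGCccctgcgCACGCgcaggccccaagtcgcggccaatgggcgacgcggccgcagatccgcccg
P4HA1: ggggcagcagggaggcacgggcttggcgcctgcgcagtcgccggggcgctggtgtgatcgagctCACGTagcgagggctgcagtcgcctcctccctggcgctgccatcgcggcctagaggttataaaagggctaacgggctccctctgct
ANGPTL4: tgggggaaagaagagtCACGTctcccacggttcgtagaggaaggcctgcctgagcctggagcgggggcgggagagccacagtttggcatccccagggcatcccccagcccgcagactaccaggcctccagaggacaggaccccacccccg
PLOD2: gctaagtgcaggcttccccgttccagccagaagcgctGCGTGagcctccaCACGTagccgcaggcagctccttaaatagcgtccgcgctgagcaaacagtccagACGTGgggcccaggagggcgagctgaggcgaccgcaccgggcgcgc
EGLN1: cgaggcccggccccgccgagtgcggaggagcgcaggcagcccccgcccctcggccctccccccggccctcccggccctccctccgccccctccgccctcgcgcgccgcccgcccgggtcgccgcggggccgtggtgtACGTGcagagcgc
HIF1A: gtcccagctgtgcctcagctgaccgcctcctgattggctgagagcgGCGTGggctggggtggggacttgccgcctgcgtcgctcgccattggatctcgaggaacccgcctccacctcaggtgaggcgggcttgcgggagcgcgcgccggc
BNIP3, ANKRD37 and PLOD2 each carry more than 1 match within these stretches, and PLOD2 was not called in 3D against 2D. CA9 has 1 match, close to the start. HIF1A has 1 GCGTG in the stretch shown.

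Libraries held 12605539 to 18634295 counted reads. First-round 3D replicates 1 and 2 and heat replicate 1 stood apart in composition. In these 3 libraries the departure of each gene from its mean over the 2D libraries was correlated with transcript GC content (Spearman rho 0.60 to 0.80 across genes). In the other 12, which include the 2D libraries themselves, rho was -0.19 to 0.23. Their TMM scaling factors were 0.655 to 0.738, against 0.980 to 1.28. For 3D against 2D and the animal model against 3D, the counts below, and the members whose call changed or whose value moved by over 1.5 times without these libraries, are given with and without them. Without 3D replicates 1 and 2, the 3D group is replicate 3 alone, and its spread is taken from the other groups. The labelled cell type was checked against its markers: KRT8 (2949 to 3041 CPM, the counts scaled to library size, in 2D), KRT18 and the liver transcription factor HNF4A were present in every group. The liver tumour markers GPC3 and EPCAM were near 0 in every group (at most 1.35 CPM), and ALB, the albumin gene, was at 2.11 to 2.56 CPM in 2D and at 90.8 to 283 CPM in the animal libraries, and AFP, the fetal liver protein, was at 1.90 to 2.19 and 5.04 to 16.2 CPM.

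In the 3D model most of the 33 genes were higher than in 2D. Of the members, 22 rose and 3 fell (edgeR quasi-likelihood test, Benjamini-Hochberg adjusted p below 0.05 over 12925 genes), and 8 were not called. Over all genes tested, 20% were called higher and 12.9% lower. The median log2 fold change was 1.49 over the members and 0.03 over all genes. CPM values of the 3 libraries of each group did not overlap for 23 members that were higher in 3D and for 3 that were lower, against 24.9% and 25.2% of all genes. Without 3D replicates 1 and 2 the counts were 28 higher and 3 lower, beside 22.9% and 23.6% of all genes, and the members' median was 2.15. In bulk RNA a change in the share of cells that express a gene and a change in RNA per cell cannot be told apart.

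**Figure D1:**
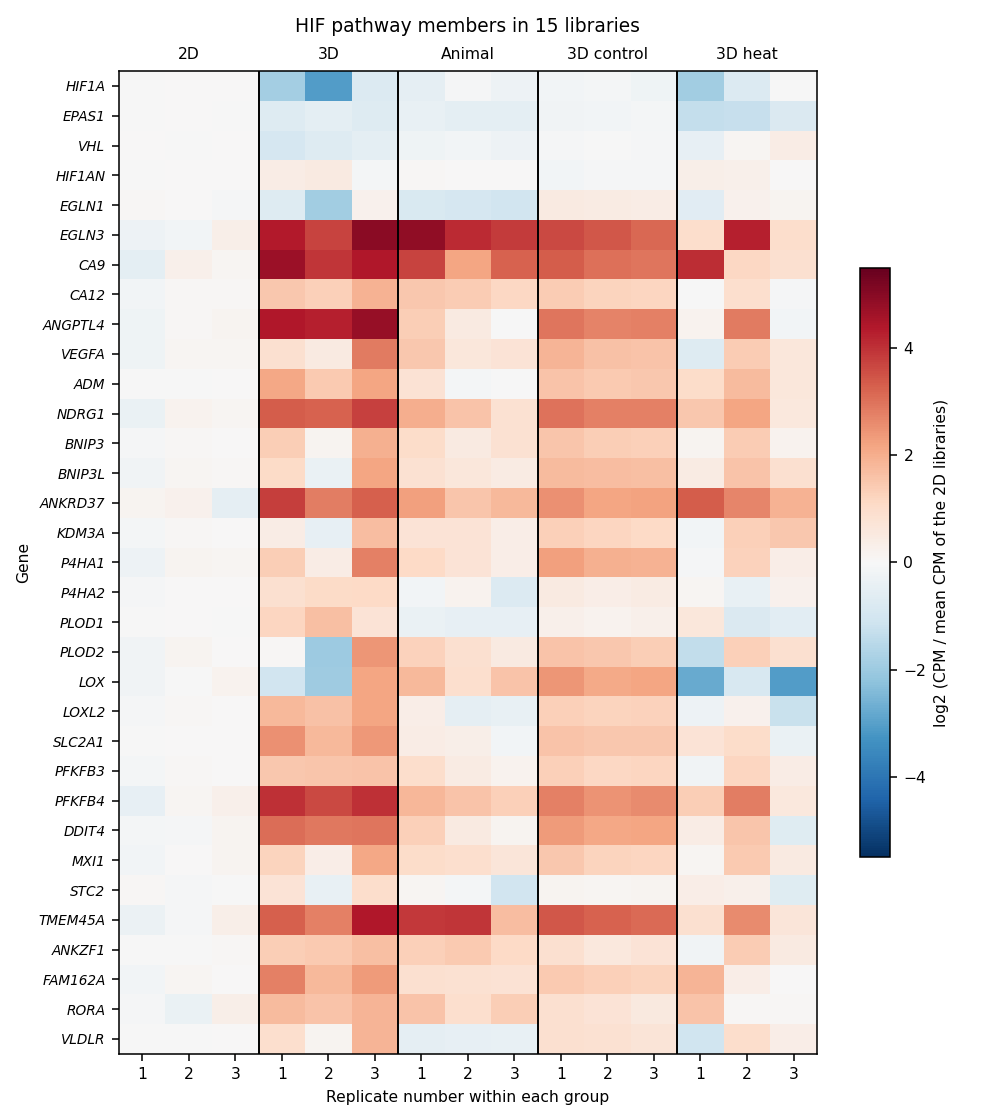
Level of each of the 33 members (rows) in each of the 15 libraries (columns, by group and replicate number), as the log2 ratio of its CPM to the mean CPM of the 3 libraries in 2D. Red is above and blue below the 2D mean; most rows are red in the 3D and 3D control columns, and the HIF1A, EPAS1 and VHL rows are not.

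The alpha subunits went the other way from their targets. HIF1A was at 141, 142 and 143 CPM in the 2D libraries and at 39.2, 17.1 and 83.7 CPM in the 3D libraries. All 3 libraries in 3D lay below all 3 in 2D, and replicate 3 stood well above replicate 2. HIF1A fell 3.08-fold (log2 fold change ± SE -1.62 ± 0.48, adjusted p = 0.0321). The size of this fall depends on the libraries that stand apart: it was -0.77 on the log2 scale without 3D replicates 1 and 2 (adjusted p = 0.00605) and -0.60 with an offset for GC content and length. The call ended without 3D replicate 1 (adjusted p = 0.113) and without any 1 of the 2D libraries (adjusted p = 0.0808 to 0.0836). EPAS1 encodes the alpha subunit best known from endothelium, kidney and liver. It was at 261, 268 and 257 CPM in 2D and 158, 182 and 161 CPM in 3D, with no overlap and little spread. EPAS1 fell 1.61-fold (-0.69 ± 0.15, adjusted p = 0.0102), with -0.71 on the log2 scale without 3D replicates 1 and 2; its call ended without 2D replicate 1 or 2 (adjusted p = 0.0515 and 0.0554). Per kilobase of the longest coding transcript, HIF1A stood at 0.692 to 0.728 times EPAS1 in the 2D libraries. The same ratio was 0.323, 0.123 and 0.680 in 3D replicates 1, 2 and 3, so in replicate 3 it was near the 2D values.

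The oxygen-sensing genes split. EGLN3, a prolyl hydroxylase whose own transcript is a well-known HIF target, was nearly silent in 2D at 0.533, 0.580 and 0.801 CPM. In the 3D libraries it was at 12.9, 8.43 and 20.1 CPM, every one far above 2D. EGLN3 rose 21.1-fold (4.40 ± 0.47, adjusted p = 0.00105). EGLN1, the main prolyl hydroxylase of most cells, was at 141, 137 and 129 CPM in 2D and 81.96, 36.1 and 159 CPM in 3D. Its 3D libraries lay on both sides of the 2D range, and it was not called (-0.57 ± 0.44, adjusted p = 0.325). HIF1AN, the asparagine hydroxylase that blocks binding of coactivators, was at 37.1, 37.5 and 37.4 CPM in 2D and 49.9, 53.3 and 35.1 CPM in 3D (0.26 ± 0.19, adjusted p = 0.303). For both genes the sign turned without 3D replicates 1 and 2 (EGLN1 0.22, HIF1AN -0.09), again with no call. HIF1AN was called higher with the GC and length offset (0.83, adjusted p = 0.0324) and without 3D replicate 3 (0.41, 0.00891), and EGLN1 lower without 3D replicate 3 (-1.26, 0.00343). VHL, which presents the hydroxylated alpha subunit for degradation, was at 34.2, 33.5 and 33.9 CPM in 2D and 17.9, 20.9 and 23.3 CPM in 3D. VHL fell 1.68-fold (-0.75 ± 0.19, adjusted p = 0.0174) with no overlap. Its call ended without any 1 of the 2D libraries (adjusted p = 0.0696 to 0.073) or without 3D replicate 1 (adjusted p = 0.0614). With only the 2 groups fitted, none of the 3 falls was called (adjusted p = 0.0527 for EPAS1, 0.062 for VHL and 0.0839 for HIF1A). Reads of HIF1A, EGLN1 and EGLN3 could in part come from annotated pseudogene copies, and HIF1AN shares exon bases with NDUFB8.

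**Figure D2:**
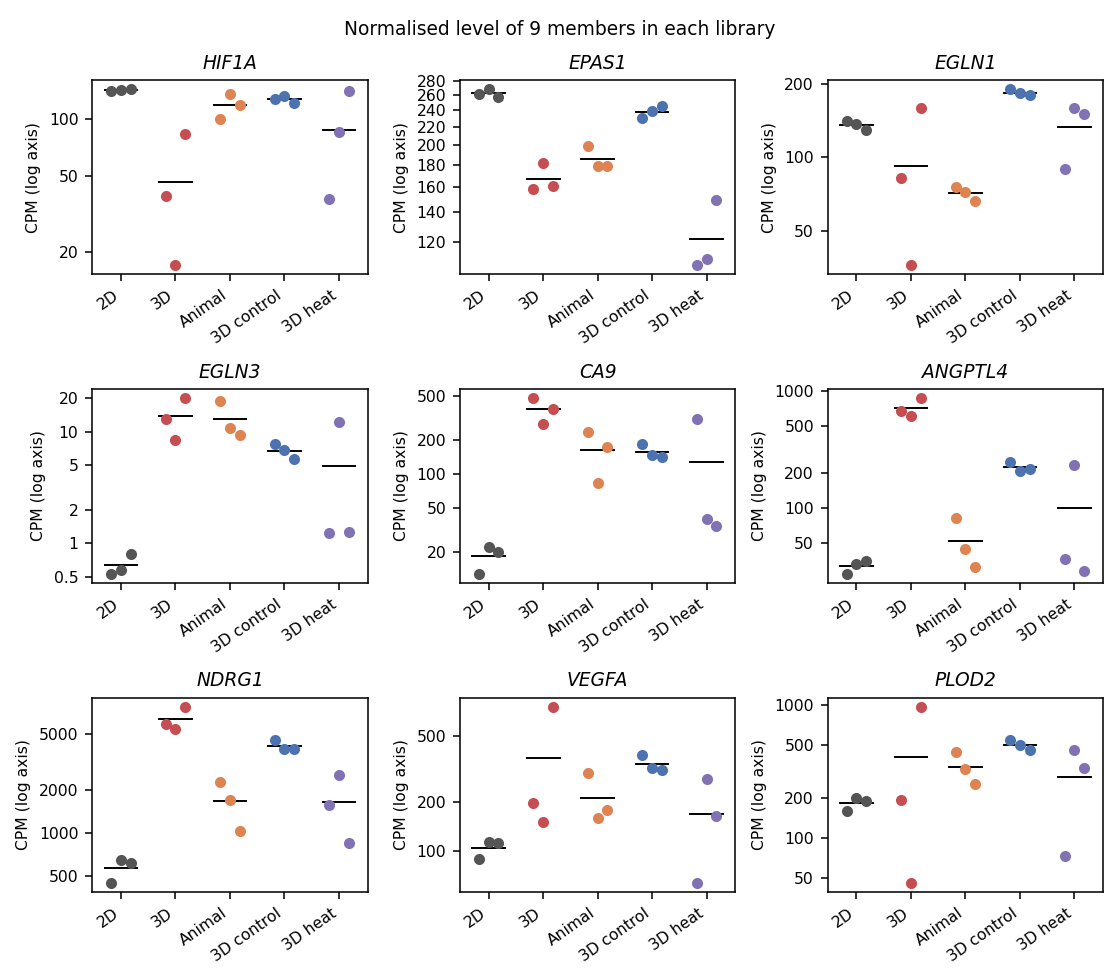
CPM of 9 members in each library (points, log axes) with the group mean (bar), by group. EGLN3, CA9, ANGPTL4 and NDRG1 sit above 2D in every first-round 3D library, while HIF1A, EGLN1, VEGFA and PLOD2 are spread widely among the first-round 3D libraries and heat libraries.

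Of the 6 genes of pH control, lipid handling and vessel growth, 5 rose, beside 20% of all genes. The counts by role here and below are parts of the 22 members that rose, and no role was tested as a set. CA9 encodes a carbonic anhydrase on the cell surface and is a classic marker of hypoxic tumour cells. It was at 12.8, 22.4 and 19.97 CPM in 2D and 478, 278 and 385 CPM in 3D. CA9 rose 20.2-fold (4.34 ± 0.45, adjusted p = 0.000942), and its promoter stretch above holds a single CACGT. CA12, a related enzyme that is already abundant in 2D (256, 295 and 291 CPM), was at 784, 690.3 and 1045 CPM in 3D and rose 2.93-fold (1.55 ± 0.22, adjusted p = 0.00207). ANGPTL4, a secreted inhibitor of lipoprotein lipase, was at 27.3, 32.97 and 35.2 CPM in 2D and 670.3, 607 and 869.5 CPM in 3D. That is a rise of 22.01-fold (4.46 ± 0.38, adjusted p = 0.000642), the largest of the members in this fit; with the offset for GC content and length described below, EGLN3 (4.38) was above ANGPTL4 (3.56). ADM, a peptide that widens vessels, was at 92.6, 92.1 and 95.9 CPM in 2D and 413, 251 and 421 CPM in 3D and rose 3.78-fold (1.92 ± 0.31, adjusted p = 0.00341). VEGFA, the main growth factor of vessels, stood at 89.1, 114 and 112 CPM in 2D. In the 3D libraries it was at 195, 149.9 and 755 CPM, so replicate 3 was far above the other 2 libraries, and all 3 were above 2D. VEGFA rose 3.46-fold (1.79 ± 0.59, adjusted p = 0.0444). The log2 fold change was 0.66 when 3D replicate 3 was left out and 2.84 when it stood alone for 3D, and without any 1 of the 2D libraries the call ended (adjusted p = 0.113 to 0.135). It also ended under upper-quartile scaling, with a replicate block (alone or with the GC and length offset) and with only the 2 groups fitted (adjusted p = 0.0577 to 0.0913). VLDLR, a receptor for lipoproteins, was at 10.7, 10.8 and 11.1 CPM in 2D and 20.7, 11.997 and 39.4 CPM in 3D; the groups did not overlap but it was not called (1.12 ± 0.39, adjusted p = 0.0555). It was called without 3D replicates 1 and 2 (1.85, adjusted p = 7.13e-05). CA9 shares exon bases with ARHGEF39, so reads from the overlap cannot be assigned without a known strand setting.

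Of the 4 genes of mitophagy and of mitochondria, 3 rose, beside 20% of all genes. BNIP3 and BNIP3L are receptors on the outer mitochondrial membrane that lead mitochondria into autophagy. BNIP3 was at 49.7, 53.5 and 52.2 CPM in 2D and 132, 58.1 and 202 CPM in 3D, where replicate 2 was just above the 2D range. BNIP3 rose 2.48-fold (1.31 ± 0.40, adjusted p = 0.034). Its call ended without any 1 of the 2D libraries (adjusted p = 0.0998 to 0.107) or without 3D replicate 1 (adjusted p = 0.0878), with a replicate block (alone or with the GC and length offset) and with only the 2 groups fitted (0.0587 to 0.0762), and without 3D replicates 1 and 2 the log2 fold change was 1.96. Many annotated BNIP3 pseudogenes exist, so the count of this gene is uncertain. BNIP3L was at 47.6, 58.2 and 57.5 CPM in 2D and 114, 42.8 and 245 CPM in 3D. Its 3D replicate 2 lay below every 2D library and replicate 3 far above, and it was not called (1.28 ± 0.52, adjusted p = 0.086); without 3D replicates 1 and 2 it was (2.17, adjusted p = 9.04e-05). FAM162A, a mitochondrial protein, was at 38.8, 45.8 and 43.5 CPM in 2D and 289, 146 and 217 CPM in 3D. FAM162A rose 4.97-fold (2.31 ± 0.26, adjusted p = 0.00106). ANKZF1, a factor of the ribosome quality control of stalled chains that also acts at stressed mitochondria, was at 19.1, 19.2 and 20.7 CPM in 2D and 49.6, 53.4 and 61.3 CPM in 3D and rose 2.72-fold (1.45 ± 0.19, adjusted p = 0.00178). BNIP3L shares exon bases with PNMA2, FAM162A with WDR5B, and ANKZF1 with GLB1L.

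Among the 6 enzymes that modify and cross-link collagen, 4 rose in 3D, beside 20% of all genes, and 2 were not called. P4HA1 and P4HA2 encode catalytic subunits of collagen prolyl hydroxylase, which lets collagen chains fold into a stable helix. P4HA1 was at 38.9, 51.96 and 50.4 CPM in 2D and 122, 62.9 and 319 CPM in 3D, with replicate 3 highest. P4HA1 rose 3.53-fold (1.82 ± 0.53, adjusted p = 0.0303), with 2.76 on the log2 scale from 3D replicate 3 alone and 0.91 when it was left out. P4HA2 was more even, at 35.8, 37.2 and 38.1 CPM in 2D and 68.3, 77.2 and 80.1 CPM in 3D, and rose 1.98-fold (0.99 ± 0.25, adjusted p = 0.0172). Leaving out any 1 of the 2D libraries ended both calls, with adjusted p from 0.0868 to 0.106 for P4HA1 and from 0.0653 to 0.0743 for P4HA2, as did leaving out 3D replicate 1 for P4HA1 (adjusted p = 0.0526). For P4HA1 it also ended with a replicate block (0.0684) and with only the 2 groups fitted (0.0729). PLOD1 and PLOD2 encode lysyl hydroxylases, which prepare collagen for cross-links. PLOD1 was at 209, 215 and 209.7 CPM in 2D and 483, 660.3 and 359 CPM in 3D and rose 2.30-fold (1.20 ± 0.21, adjusted p = 0.00484). Here 3D replicate 3 was the lowest of its group, and the log2 fold change shrank to 0.76 with that library alone and to 0.48 with the offset for GC content and length. PLOD2 was widely scattered, at 159, 201 and 188 CPM in 2D and 194, 45.5 and 975 CPM in 3D. Its 3 libraries in 3D spanned both sides of 2D and it was not called (1.14 ± 0.85, adjusted p = 0.311), while replicate 3 alone gave 2.41 (adjusted p = 0.000345) and the other 2 libraries -0.67 (adjusted p = 0.247). LOX and LOXL2 are copper enzymes that oxidise lysines in collagen outside the cell. LOX had the same pattern, at 5.11, 5.75 and 6.67 CPM in 2D and 2.79, 1.53 and 26.1 CPM in 3D (0.80 ± 0.88, adjusted p = 0.493), and 2.15 from replicate 3 alone (adjusted p = 0.000869). Without replicate 3, LOX was called lower in 3D than in 2D (-1.50, adjusted p = 0.00406). LOXL2 was at 39.1, 42.9 and 41.4 CPM in 2D and 141, 127 and 183 CPM in 3D and rose 3.57-fold (1.84 ± 0.27, adjusted p = 0.00252). LOX shares exon bases with SRFBP1, and LOXL2 with ENTPD4.

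All 3 genes of glucose entry and of the fructose bisphosphate switch rose in 3D, beside 20% of all genes. SLC2A1 encodes the glucose transporter GLUT1. It was at 259, 267 and 266 CPM in 2D and 1499.7, 895 and 1369 CPM in 3D, a rise of 4.65-fold (2.22 ± 0.25, adjusted p = 0.00112). PFKFB3 and PFKFB4 make and break fructose 2,6-bisphosphate, which sets the pace of glycolysis. PFKFB3 was at 82.4, 92.997 and 89.1 CPM in 2D and 246, 253 and 264 CPM in 3D and rose 2.81-fold (1.49 ± 0.22, adjusted p = 0.00251). PFKFB4 was at only 9.32, 13.4 and 15.1 CPM in 2D and at 205, 155 and 203 CPM in 3D. PFKFB4 rose 14.5-fold (3.86 ± 0.27, adjusted p = 0.000642). In each of the 3 genes every 3D library was above every 2D library, and replicate 2 was the lowest 3D library for SLC2A1 and PFKFB4. PFKFB4 shares exon bases with UCN2.

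Of the 8 stress genes, transcription regulators and other targets, 6 rose, beside 20% of all genes. NDRG1, a gene of the stress response, had the highest CPM of the members, at 448, 649 and 615 CPM in 2D and 5814, 5413 and 7702 CPM in 3D. NDRG1 rose 10.8-fold (3.44 ± 0.35, adjusted p = 0.000897). DDIT4, an inhibitor of mTORC1 signalling, was at 29.8, 31.1 and 35.5 CPM in 2D and 268, 238 and 249.6 CPM in 3D and rose 7.64-fold (2.93 ± 0.30, adjusted p = 0.000935). ANKRD37, whose promoter stretch holds the palindrome CACGTG, was at 1.17, 1.21 and 0.747 CPM in 2D and 14.7, 7.27 and 10.2 CPM in 3D. ANKRD37 rose 9.98-fold (3.32 ± 0.39, adjusted p = 0.00119); its exons overlap those of UFSP2. TMEM45A, a membrane protein, was at 2.24, 2.64 and 3.42 CPM in 2D and 27.4, 18.98 and 59.04 CPM in 3D and rose 12.5-fold (3.64 ± 0.67, adjusted p = 0.00562), with 4.41 on the log2 scale without 3D replicates 1 and 2. MXI1, a repressor that competes with MYC for its partner, was at 15.3, 17.2 and 19.005 CPM in 2D and 39.9, 21.8 and 74.9 CPM in 3D. MXI1 rose 2.61-fold (1.39 ± 0.41, adjusted p = 0.0304), with 2.12 on the log2 scale without 3D replicates 1 and 2; its call ended without any 1 of the 2D libraries (adjusted p = 0.0811 to 0.106) or 3D replicate 1 (adjusted p = 0.0629), with a replicate block (0.0584) and with only the 2 groups fitted (0.0741). RORA, a nuclear receptor, was at 1.49, 1.21 and 1.98 CPM in 2D and 5.20, 4.65 and 5.77 CPM in 3D and rose 3.25-fold (1.70 ± 0.30, adjusted p = 0.00492). KDM3A, a histone demethylase that itself needs oxygen, was at 40.4, 45.4 and 44.04 CPM in 2D and 58.2, 31.3 and 141 CPM in 3D (0.81 ± 0.47, adjusted p = 0.204). STC2, a secreted glycoprotein of the stress response, was at 52.6, 47.5 and 49.1 CPM in 2D and 83.2, 37.4 and 98.4 CPM in 3D (0.53 ± 0.40, adjusted p = 0.316). Both overlapped 2D and were not called, and both were called from replicate 3 alone (1.70 and 0.98).

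The first-round 3D libraries differed among themselves on these genes, as they did on genes at large. Replicate 3 was the highest of the 3 for 24 of the 33 members, against 46.6% of all genes, and replicate 2 the lowest for 26, against 44.7%. The highest library was more than 2 times the lowest for 15 members in 3D, against 61.5% of all genes, and for none in 2D or in the second-round controls, against 4.44% and 3.77%. The median of this ratio in 3D was 1.84 over the members and 2.36 over all genes. Among the 12 members whose transcript GC content is below 45%, 11 had a higher CPM in replicate 3 than the mean of replicates 1 and 2, FAM162A being the exception at nearly the same level, and among the other 21, 16 were. Across the 33 members, the Spearman correlation of GC content with the difference between replicates 1 and 2 and replicate 3 was 0.55. Over 13227 genes it was 0.75, so the members follow a trend of the whole libraries; these points share libraries and are given as a description. LOX and PLOD2 lay at the far end, 12.1 and 8.15 times as high in replicate 3 as in the mean of the others. When the trend of every library with transcript GC content and length was taken out by an offset, 27 members were called higher and 3 lower in 3D than in 2D, beside 16.1% and 16.5% of all genes. That offset moved log2 fold changes by more than a factor of 1.5 in fold for members at both ends of GC content. It lowered ANGPTL4 to 3.56, CA9 to 3.42, ANKRD37 to 2.47, DDIT4 to 2.12 and ADM to 1.18, and it raised FAM162A to 3.25 and RORA to 3.51. What set the composition of these libraries apart was not tested.

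**Figure D3:**
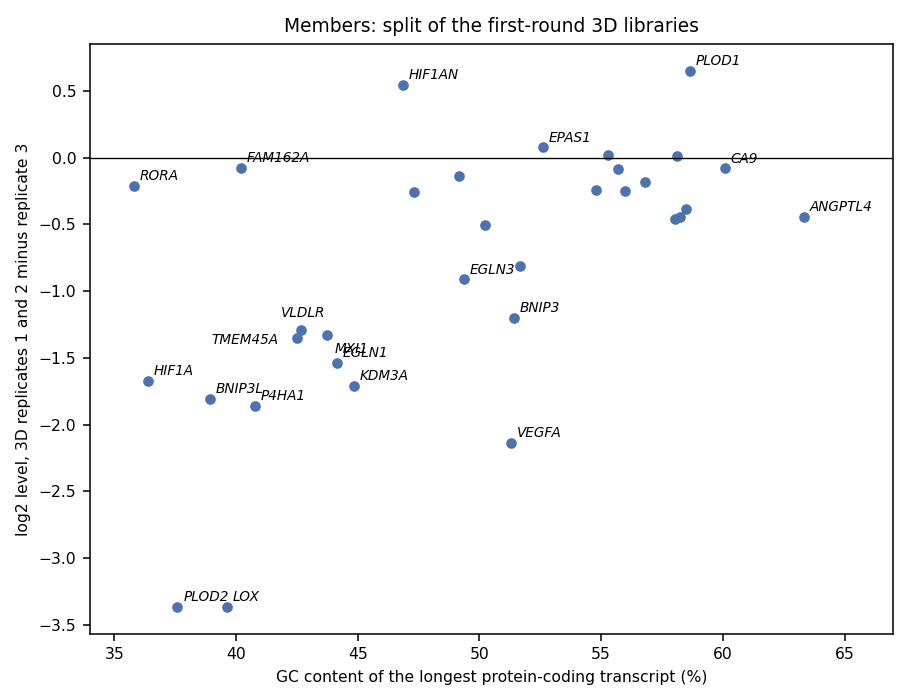
For each of the 33 members (points), the difference in log2 level between first-round 3D replicates 1 and 2 (mean) and replicate 3, against the GC content of its longest protein-coding transcript in percent. Points below 0 are higher in replicate 3; PLOD2 and LOX lie lowest, and PLOD1 and HIF1AN highest.

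In the animal model fewer of these genes were called above 2D, and many were called below the first-round 3D libraries. CPM values did not overlap 2D for 20 members that were higher and 6 lower, against 33.8% and 32.7% of all genes. Against 2D, 9 members rose and none fell, beside 7.78% and 4.25% of all genes, with a median log2 fold change of 0.72 (0.03 over all genes). The 9 were EGLN3, CA9, CA12, NDRG1, ANKRD37, PFKFB4, TMEM45A, ANKZF1 and RORA; 13 members had an unadjusted p below 0.05, 12 of them higher (15.2% of all genes) and 1 lower (11.4%). Against 3D, 14 members fell and 2 rose, beside 22.9% and 18.6% of all genes, with a median of -0.78 (0.10 over all genes). Both animal comparisons were fitted with the 2D, 3D and animal libraries together, so they share the spread of the 3D libraries, and the 3 comparisons share their libraries. With only the 2 groups in the fit, 19 members were higher and 5 lower than in 2D, beside 29.5% and 27.9% of all genes. With replicate 3 alone standing for 3D, 23 members fell and 2 rose from 3D to the animal model, beside 22.5% and 24.6%. The fall of CA9 was then lost (adjusted p = 0.0671), and falls of EGLN1, CA12, VEGFA, BNIP3, BNIP3L, KDM3A, P4HA1, PLOD2, MXI1 and STC2 were gained (log2 fold changes from -2.002 to -0.55); LOX and TMEM45A moved to -0.69 and -0.95 without a call. Against 2D that fit gave 19 higher and 5 lower, beside 28.4% and 27.2%.

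**Figure D4:**
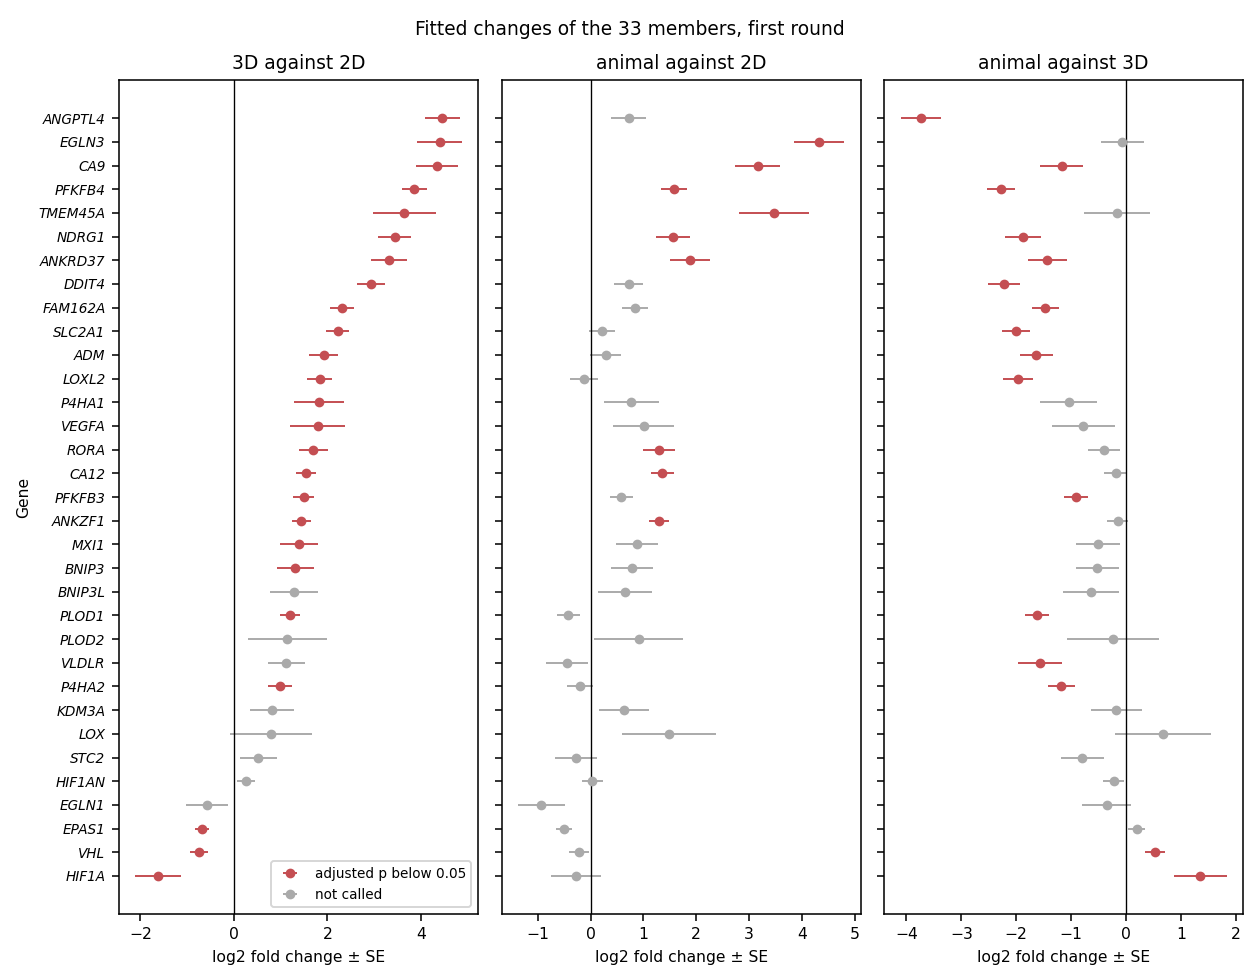
Fitted log2 fold change (point) and standard error (bar) of each of the 33 members for the 3 comparisons of the first round, each fitted over 9 libraries. Red points have an adjusted p below 0.05; the targets at the top are right of 0 against 2D and mostly left of 0 when the animal model is set against 3D.

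EGLN3 in the animal libraries was at 18.8, 10.9 and 9.31 CPM, a range that overlapped 3D. It rose 20.1-fold against 2D (4.33 ± 0.47, adjusted p = 0.001), and the difference from 3D was -0.07 ± 0.39 (adjusted p = 0.895), a value whose sign turned under 4 of 16 alternatives. TMEM45A was higher in replicates 1 and 2 than in replicate 3, at 41.4, 42.3 and 8.95 CPM, and rose 11.1-fold against 2D (3.48 ± 0.66, adjusted p = 0.0104). CA12 was at 791, 743 and 625 CPM and rose 2.56-fold against 2D (1.36 ± 0.22, adjusted p = 0.0046). ANKZF1 was at 48.7, 53.9 and 41.7 CPM, a rise of 2.45-fold (1.29 ± 0.19, adjusted p = 0.00354). For these 4 genes the animal and first-round 3D ranges overlapped. RORA was at 4.57, 2.99 and 4.02 CPM and rose 2.47-fold against 2D (1.30 ± 0.30, adjusted p = 0.0236). CA9 was between 2D and first-round 3D at 239, 83.1 and 173 CPM, with no overlap on either side. The second-round 3D controls, at 186, 148 and 142 CPM, lay within this animal range. CA9 rose 8.97-fold against 2D (3.16 ± 0.42, adjusted p = 0.00234). It was 2.25-fold lower than in first-round 3D (-1.17 ± 0.39, adjusted p = 0.0404), a call that ended under 9 of 16 alternatives. NDRG1 was at 2297, 1712 and 1031 CPM, also between: it rose 2.94-fold against 2D (1.56 ± 0.32, adjusted p = 0.0152) and fell 3.68-fold against 3D (-1.88 ± 0.32, adjusted p = 0.00314). PFKFB4, at 45.3, 37.2 and 30.98 CPM, rose 2.997-fold and fell 4.85-fold in the same comparisons (adjusted p = 0.00478 and 0.000626). ANKRD37, at 5.05, 2.99 and 3.54 CPM, did likewise (adjusted p = 0.013 and 0.0128). Against 2D, leaving out any 1 of the 2D libraries or animal replicate 1 ended the calls of NDRG1 (adjusted p = 0.0567 to 0.0837), ANKRD37 (0.0537 to 0.0715) and RORA (0.0567 to 0.124). RORA was also lost without animal replicate 3 (0.0739), and TMEM45A without 2D replicate 1 or 2 (0.0586 and 0.0566). Animal replicate 1 was the highest of its group for 27 of the 33 members, against 30.3% of all genes. Other groups were also uneven in this way. Replicate 1 of the second-round controls was the highest for 28 members, against 35.3% of all genes. In 2D, replicate 1 was the lowest for 26 members, against 34.1%.

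The other members that fell against 3D were not called against 2D. ANGPTL4 was at 81.3, 44.98 and 31.5 CPM, overlapping 2D (0.72 ± 0.33, adjusted p = 0.21), and fell 13.3-fold against 3D (-3.74 ± 0.37, adjusted p = 0.000416). SLC2A1 was at 354, 326 and 238 CPM, close to its 2D range (0.21 ± 0.24, adjusted p = 0.646) and 4.01-fold lower than in 3D (-2.003 ± 0.25, adjusted p = 0.00095). DDIT4 was at 78.8, 44.8 and 35.3 CPM and fell 4.64-fold against 3D (-2.21 ± 0.29, adjusted p = 0.00113). Neither was called against 2D. ADM, at 164, 86.8 and 91.4 CPM, fell 3.10-fold against 3D, and FAM162A, at 79.2, 75.5 and 74.5 CPM, fell 2.77-fold (adjusted p = 0.00422 and 0.0029). FAM162A was above 2D in all 3 animal libraries (0.84 ± 0.25, adjusted p = 0.0592), and was called higher with only the 2 groups fitted (adjusted p = 0.000133). Of the matrix enzymes, LOXL2 (52.6, 29.5 and 31.04 CPM) fell 3.90-fold against 3D, PLOD1 (165, 154 and 154 CPM) fell 3.08-fold and P4HA2 (33.5, 42.1 and 21.7 CPM) fell 2.26-fold (adjusted p = 0.00132, 0.00114 and 0.00683). LOX was at 20.4, 11.1 and 17.4 CPM, above 2D in all 3 libraries but not called (1.48 ± 0.89, adjusted p = 0.34); it was called with only the 2 groups fitted (adjusted p = 0.00123). PFKFB3 was above 2D in all 3 as well (0.58 ± 0.22, adjusted p = 0.122; adjusted p = 0.0311 with only the 2 groups). PFKFB3 and VLDLR also fell against 3D (-0.91 ± 0.22, adjusted p = 0.0111, and -1.57 ± 0.40, adjusted p = 0.0145). VLDLR, at 7.82, 7.96 and 8.11 CPM, was below every 2D library as well; against 3D it gave -2.32 with 3D replicate 3 alone and -0.98 with that library left out, and its call ended without animal replicate 1 (adjusted p = 0.0523). With the offset for GC content and length, 17 members fell against 3D and none rose, beside 24.2% and 17.9% of all genes, and ADM and ANKRD37 were no longer called (adjusted p = 0.0647 and 0.0707). ANKRD37 also lost its call without animal replicate 3 (adjusted p = 0.0501).

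In the animal libraries HIF1A lay between 2D and first-round 3D, while EPAS1 lay below 2D and overlapped first-round 3D. HIF1A was at 99.7, 135 and 119 CPM, just below 2D (-0.27 ± 0.47, adjusted p = 0.785) and 2.56-fold higher than in 3D (1.35 ± 0.48, adjusted p = 0.0491). The rise against 3D was 0.48 on the log2 scale with 3D replicate 3 alone, 2.12 when that library was left out and -0.04 with the offset for GC content and length. Its call ended on leaving out 3D replicate 1 or 2 or any animal library (adjusted p = 0.0503 to 0.15). EPAS1 was at 199, 179 and 179 CPM, below 2D in all 3 libraries but not called (-0.50 ± 0.15, adjusted p = 0.0648), and overlapping 3D (0.19 ± 0.15, adjusted p = 0.314). VHL, at 28.7, 30.5 and 28.2 CPM, rose against 3D by 0.53 on the log2 scale (adjusted p = 0.0499), a call that held under 5 of 16 alternatives. EGLN1 was at 75.3, 72.2 and 66.05 CPM, below 2D in all 3 libraries without a call (-0.93 ± 0.44, adjusted p = 0.222); with only the 2 groups fitted, it fell (adjusted p = 6.19e-05). HIF1AN was at 39.3, 37.7 and 37.7 CPM in the animal libraries (0.04 ± 0.19, adjusted p = 0.937 against 2D). Per kilobase, HIF1A stood at 0.655, 0.987 and 0.864 times EPAS1 in the animal libraries.

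Tumours in an animal hold cells of the host, whose reads can map to human genes. Summed over 10 fibroblast and pericyte markers, the animal libraries held 163 to 462 CPM, against 64.6 to 69.0 CPM in 2D, 16.3 to 112 CPM in the first-round 3D libraries and 75.2 to 76.7 CPM in the second-round controls. COL1A1 was at 59.7 to 244 CPM, and 5 of the 6 markers tested rose against 2D, while THY1 was at 0. The 9 macrophage and leukocyte markers summed to 159 to 217 CPM, against 102 to 109 CPM in 2D, 387 to 495 CPM in the first-round 3D libraries and 227 to 246 CPM in the second-round controls. CD68 made up 112 to 178 CPM of the animal sums, and TYROBP was at 0. LYZ, CD74 and ITGAM, 3 of 5 tested, rose against 2D. In first-round 3D against 2D, 3 of the 5 rose as well. ITGAM was at 11.0 to 12.6 CPM in the animal libraries and at 9.02 to 12.7 CPM in first-round 3D. CD74 was at 18.4 to 24.0 and 3.25 to 9.38 CPM in these groups, and LYZ at 2.47 to 9.19 and at most 0.0775 CPM. The 8 endothelial markers summed to 44.4 to 66.6 CPM, against 47.0 to 59.3 CPM in 2D and 68.5 to 127 CPM in first-round 3D, and ESAM made up 38.2 to 59.5 CPM of the animal sums. KDR, at 4.27 to 15.1 CPM, and TEK, 2 of 3 tested, rose against 2D, and EMCN was at 0. Red cell markers summed to at most 6.19 CPM and fat markers to at most 0.544 CPM. Host cells express several members, such as LOX, PLOD2 and VEGFA, and the part of host reads in the members' levels was not tested.

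The second-round control libraries, also MHCC-97H in the 3D model, gave a further view of 3D against 2D. Round of sequencing and group cannot be told apart in this comparison. In all 3 control libraries, 29 of the 33 members were above all 3 libraries in 2D, and the other 4, HIF1A, EPAS1, VHL and HIF1AN, were below; 32.2% and 33.1% of all genes did not overlap in the same ways. In the fit over 15 libraries 7 members rose and none fell, beside 0.93% and 0.00756% of 13227 genes, and 22 had an unadjusted p below 0.05, all higher, beside 7.73% of genes higher and 2.65% lower. The 7 were NDRG1, TMEM45A, PFKFB4, ANKRD37, DDIT4, SLC2A1 and ADM. Without first-round 3D replicates 1 and 2 and heat replicate 1, whose spread enters that fit, 26 rose and none fell, beside 11.9% and 11.2%. With only the 2 groups in the fit, 29 rose and 2 fell, beside 31.4% and 31.7%. Leaving out any 1 library of either group from the fit over 15 left 0 to 1 member called, NDRG1 being the member that held without any 1 control library.

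The controls were close together, with the highest library at most 1.38 times the lowest for any member. NDRG1 was at 4514, 3925 and 3906 CPM, 7.21-fold above 2D (2.85 ± 0.41, adjusted p = 0.00915). PFKFB4 was at 85.1, 69.1 and 76.96 CPM, 6.11-fold above 2D (2.61 ± 0.45, adjusted p = 0.0179). TMEM45A was at 29.1, 26.4 and 24.1 CPM and 9.58-fold above (3.26 ± 0.66, adjusted p = 0.0378). These 3 members had some of the largest rises in the first-round 3D libraries too. ANKRD37 (5.99, 4.65 and 4.87 CPM), DDIT4 (163, 142 and 145 CPM), SLC2A1 (794, 732 and 748 CPM) and ADM (275, 255 and 263 CPM) rose 4.92-fold, 4.66-fold, 2.87-fold and 2.83-fold. EGLN3 was at 7.81, 6.86 and 5.68 CPM, CA9 at 186, 148 and 142 CPM and ANGPTL4 at 247, 209 and 217 CPM. Each was several fold above 2D (3.40 ± 0.79, 3.11 ± 0.73 and 2.82 ± 0.65 on the log2 scale) without passing the threshold in the fit over 15 libraries (adjusted p = 0.0654, 0.0656 and 0.0631), and each passed with only the 2 groups fitted. The members that scattered in the first round were tight here. PLOD2 was at 548, 505 and 462 CPM, LOX at 31.01, 24.9 and 26.2 CPM, VEGFA at 386, 319 and 313 CPM and BNIP3L at 181, 177 and 174 CPM, all above 2D and all between first-round 3D replicate 2 and replicate 3 except LOX, where 2 of the control libraries were above replicate 3. HIF1A was at 127, 133 and 120.5 CPM, -0.16 ± 0.48 from 2D on the log2 scale, and EPAS1 at 231, 238 and 245 CPM (-0.14 ± 0.18). Both lay above every first-round 3D library. EGLN1, at 190.4, 183 and 179 CPM, was above 2D in each library (0.44 ± 0.39), unlike the first-round 3D mean. Set directly against each other, the first-round 3D and second-round control libraries differed for none of the 33 members at an adjusted p below 0.05, beside 1.24% of genes higher and 1.3% lower; 13 members had an unadjusted p below 0.05, 9 higher and 4 lower in the first round, beside 20.7% and 14.9% of genes. DESeq2 called 9 higher and 3 lower, beside 15.1% and 8.91%.

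Heat treatment in the 3D model gave no member an adjusted p below 0.05 in edgeR, in a comparison where 3 of 12627 genes passed (0.00792% higher and 0.0158% lower). At an unadjusted p below 0.05 there were 8 members, all with lower values after heat, beside 8.97% of genes lower and 11.8% higher. DESeq2 called 7 lower and none higher, beside 5.46% and 6.74% of genes: EPAS1, NDRG1, P4HA1, LOX, LOXL2, DDIT4 and TMEM45A. In CPM, 14 members had all 3 heat libraries below all 3 controls and 1, HIF1AN, above, against 19.1% and 17.5% of all genes. The median log2 fold change over the members was -0.52, against 0.10 over all genes.

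The 3 heat libraries differed from each other more than any other group on these genes. The highest was more than 2 times the lowest for 28 of the 33 members, and for 64.8% of all genes. LOX was at 31.01, 24.9 and 26.2 CPM in the controls and at 0.859, 3.15 and 0.685 CPM after heat. It was low in every heat library, and its fitted value was -4.08 ± 0.62, adjusted p = 0.0805, the lowest p of the members. EPAS1 was at 106, 109.6 and 149.8 CPM after heat, all below the controls (-0.96 ± 0.25, adjusted p = 0.123). P4HA1 was at 45.6, 112 and 60.6 CPM (-1.41 ± 0.38, adjusted p = 0.126) and LOXL2 at 33.9, 48.6 and 17.5 CPM (-1.58 ± 0.39, adjusted p = 0.12), again with no overlap. DDIT4 was at 42.1, 91.6 and 20.2 CPM (-1.54 ± 0.53, adjusted p = 0.182). TMEM45A was at 5.16, 16.6 and 4.39 CPM (-1.59 ± 0.54, adjusted p = 0.175), and NDRG1 at 1582, 2559.8 and 849 CPM (-1.30 ± 0.49, adjusted p = 0.205). Heat replicate 2 was the highest of the heat libraries for these members except EPAS1, which was highest in replicate 3. Other members were divided among the libraries. CA9 was at 309, 39.9 and 34.01 CPM, so replicate 1 was above every control and the others below. ANGPTL4 was at 36.8, 231 and 29.05 CPM and EGLN3 at 1.24, 12.3 and 1.26 CPM. In both, replicate 2 was within or above the control range, and replicates 1 and 3 were far below it. HIF1A was at 38.1, 85.2 and 139.8 CPM (-0.52 ± 0.45, adjusted p = 0.527), with replicate 3 above the controls. VHL was at 24.9, 36.5 and 45.5 CPM, EGLN1 at 89.2, 159 and 150.3 CPM and HIF1AN at 46.5, 45.5 and 37.9 CPM.

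Counted by library, 26 members were below every control in heat replicate 1, 19 in replicate 2 and 29 in replicate 3, against 49.5%, 41.1% and 44.8% of all genes. The median member stood at 41.9%, 86.2% and 56.7% of its control mean in replicates 1, 2 and 3. Heat replicate 1 is the library of unusual composition: across the 33 members its difference from the other 2 heat libraries had a Spearman correlation of 0.33 with GC content, and 0.65 over all genes. Without it, 7 members were called lower and none higher, beside 14.8% and 14% of genes: EPAS1, CA9, P4HA1, PLOD1, LOX, LOXL2 and FAM162A. Without heat replicate 2, 9 were called lower and none higher, beside 3.58% and 4.55%: EGLN3, CA12, ANGPTL4, BNIP3, P4HA1, LOX, LOXL2, DDIT4 and TMEM45A. Without heat replicate 3, edgeR called no member and none of 12764 genes; 6 members, all lower after heat, had an unadjusted p below 0.05, beside 8.55% of genes lower and 12.3% higher. P4HA1, LOX and LOXL2 were in the sets without replicate 1 and without replicate 2 and in that of DESeq2. With the offset for GC content and length, 4 members were called lower (EPAS1, P4HA1, LOX and LOXL2) and none higher, beside 5.55% and 5.39%. The cause of the spread among the heat libraries was not tested.

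**Figure D5:**
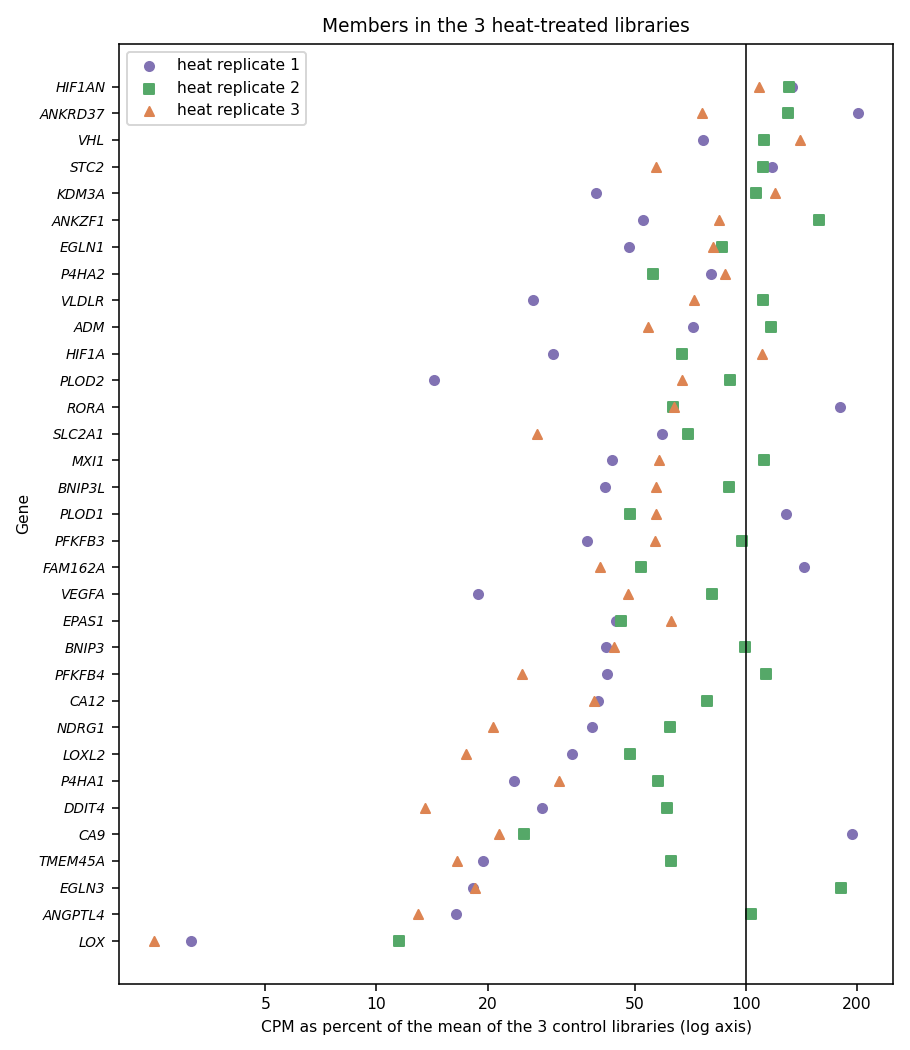
CPM of each of the 33 members in each heat library as a percent of the mean of the 3 second-round control libraries (log axis, line at 100). LOX is far left in all 3 libraries, while for CA9, EGLN3 and ANGPTL4 1 library lies apart from the other 2.

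Other genes of the pathway were read from lists of fixed symbols. Among 14 tested partners and regulators of the factors, 4 rose and 1 fell in 3D against 2D, beside the 20% and 12.9% of all genes given above. RBX1 and ELOB, parts of the VHL ubiquitin ligase, rose (1.14 and 1.67 on the log2 scale, adjusted p = 0.0202 and 0.0209), as did CITED2, which competes for the coactivator (1.92, 0.00285), and the membrane prolyl hydroxylase P4HTM (1.52, 0.00257), while CUL2, the scaffold of the same ligase, fell (-1.53, 0.0311). ELOB was at 159, 151 and 161 CPM in 2D and 741, 644 and 167 CPM in 3D, and RBX1 at 22.96, 21.5 and 25.1 and 74.6, 53.2 and 30.1 CPM, so both were highest in 3D replicates 1 and 2. Without these libraries the log2 fold changes were 0.08 for ELOB, 0.37 for RBX1, -0.68 for CUL2, 2.04 for CITED2 and 1.33 for P4HTM. The median over the list was 0.47 with these libraries and -0.20 without them. ARNT, the shared beta subunit, was not called (0.41, 0.0867), and was called higher without them (0.56, 0.00575). Of 20 further targets outside glycolysis, 10 rose and 1 fell in 3D against 2D, beside the same 20% and 12.9% of all genes. Their median was 1.35, and 1.65 without 3D replicates 1 and 2. EFNA1, a ligand of Eph receptors, rose by 3.93 on the log2 scale, from 36.4, 49.5 and 42.9 CPM to 748, 647 and 623 CPM. HILPDA, a lipid droplet protein, was at 14.6, 15.5 and 15.4 CPM in 2D and 149.8, 116 and 116 CPM in 3D and rose by 3.03. TFRC, the transferrin receptor, was the target that fell (-1.21, adjusted p = 0.00905). In the animal libraries 4 of the 20 rose against 2D and none fell, beside 7.78% and 4.25% of all genes. Against 3D, 9 of the 20 fell and 1 rose, beside 22.9% and 18.6% of all genes. Their median against 3D was -0.98, and -1.21 without 3D replicates 1 and 2. In the heat comparison none of the partners or further targets was called. Among 13 glycolytic targets, given for reference, 10 rose and none fell in 3D against 2D. In the animal libraries 2 of the 13 rose against 2D and 10 fell against 3D. The shares of all genes are those given beside the further targets. The median of the 13 in the animal libraries against 3D was -1.44, and -0.89 without 3D replicates 1 and 2.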

How the data were processed

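RNA was sequenced as short single-end reads by DNA nanoball sequencing after random-hexamer priming, per the labels' protocols, which name no strand-marking step. The authors deposited raw counts of reads for each gene symbol in every library. The submitters' processing notes name HISAT2 and hg19. The counting program, annotation, strand setting and removal of host reads are not given in the sources used here. In 27 rows the symbol has become a calendar date (0.168% of counts), and 1443 rows hold 0 in every library.

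Groups came from the labels. Counts were tested with edgeR 4.0.16 in R 4.3.3: filterByExpr by group, TMM scaling and a robust quasi-likelihood fit with group as the term. The fits used the 9 first-round libraries, the 6 second-round libraries, or all 15 for comparisons across rounds. Adjusted p-values are Benjamini-Hochberg over all genes tested, with calls below 0.05. All adjusted p-values are from this test unless DESeq2 (1.42.0) is named. The SE is the log2 fold change over the square root of F. Levels are CPM with TMM factors over all 15 libraries. Counting error is small at these depths for most members, and no molecular identifiers are mentioned. It is larger where reads are few. Among such cases, EGLN3 had 10, 11 and 15 reads and ANKRD37 22, 23 and 14 reads in the 2D libraries. LOX had 9, 65 and 12 reads in the heat libraries.

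Transcript length, GC content and exon overlaps are from GENCODE 29, matched by symbol (99.1% of genes tested in the first round). Promoters are from RefSeq. The methods were tested on simulated counts. All 33 members are accounted for. Members called in a comparison, and the factors and sensors in every comparison, are named with values; others are given as values without a call. The members and lists were chosen with earlier results of these data known. Alternatives were DESeq2, median-ratio and upper-quartile scaling, 2 other filters on low counts (none, and a minimum of 10 reads throughout a group), a replicate block, an offset for GC content and length (from splines, 5 degrees of freedom), only the groups compared, and leaving out libraries. Chosen after seeing the data were the fits of animal against 2D without 3D replicates 1 and 2, and of the second-round control against 2D without these and heat replicate 1, and the other genes of the pathway without 3D replicates 1 and 2.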

Additional observations from a re-analysis of the deposited data

How the results depend on the processing

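Counts of called members moved by over 1.5 times as follows. For 3D against 2D, no member was called lower with only the 2 groups fitted; leaving out single libraries gave 17 to 25 higher and 0 to 5 lower. For animal against 2D, only the 2 groups, or no 3D replicates 1 and 2, gave 19 higher and 5 lower; DESeq2 gave 1 lower, the GC and length offset 5 lower and this offset with the replicate block 4 lower; leaving out single libraries gave 5 to 9 higher and 0 lower. For animal against 3D, higher members numbered 1 under median-ratio scaling, upper-quartile scaling, no filter or the replicate block, and 0 under the GC and length offset (with or without the block) or with only the 2 groups; 23 were lower without 3D replicates 1 and 2, and leaving out single libraries gave 0 to 5 higher and 12 to 19 lower. For heat, lower members numbered 7 with DESeq2, 1 with the replicate block, 4 with the offset, 6 with the offset and block, and 0 to 9 on leaving out single libraries. For the second-round control against 2D, 18 were higher with DESeq2, 3 with the block, 14 with the offset, 29 with only the 2 groups (2 lower) and 26 without the 3 libraries of unusual composition; leaving out single libraries gave 0 to 1. For first-round 3D against the second-round control, DESeq2 called 9 higher and 3 lower, the offset 2 higher with or without the block, and leaving out single libraries 0 to 4 higher and 0 to 9 lower. The shares of all genes called moved with the settings as well. For the second-round control against 2D, 0.93% were called higher in the main fit. This share was 11.9% without the 3 libraries of unusual composition and 31.4% with only the 2 groups. For heat, 0.0158% were called lower in the main fit, 5.46% with DESeq2 and 14.8% without heat replicate 1. Where a count has no share beside it, it is not a result about the members. Why the counts moved was not tested.

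Among the members called in a comparison, the factors and the sensors, the signs that turned, none of them called under the setting that turned it, were on the log2 scale: HIF1AN and EGLN1 in 3D against 2D without 3D replicates 1 and 2 (-0.0924 and 0.22); HIF1AN in animal against 2D with the offset (-0.0057) and the offset and block (-0.00252). In animal against 3D they were HIF1A with the offset (-0.037) and the offset and block (-0.0345), HIF1AN without 3D replicates 1 and 2 (0.11), and EGLN3 under upper-quartile scaling (0.0164). On leaving out single libraries, EGLN1 ran from -0.75 to 0.32 and EGLN3 from -0.42 to 0.34, with the turns without 3D replicate 3 for both and without animal replicate 2 (0.0464) or 3 (0.13) for EGLN3. In the heat comparison EGLN3 ran from -2.44 to 0.0259 (0.0124 without heat replicate 1) and VHL from -0.0704 to 0.34, and between the rounds in 3D, HIF1AN without first-round 3D replicates 1 and 2 (-0.000277). Over all 33 members, a sign turned in at least 1 alternative for 5 in 3D against 2D, 4 in animal against 2D, 13 in animal against 3D, 9 in the heat comparison, 11 between the rounds in 3D and none in the second-round control against 2D. Of these values 3 were called, all without 3D replicate 3: LOX in 3D against 2D (-1.50), and PLOD2 (1.57) and KDM3A (0.64) in animal against 3D. In the heat comparison CA9 turned without heat replicate 2 (0.11) or 3 (0.15).

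Of the called members named, 16 of 25 in 3D against 2D, 5 of 9 in animal against 2D, 9 of 16 in animal against 3D and 0 of 7 in the second-round control against 2D kept the call in all 16 alternatives. The replicate numbers did not pair the libraries: deviations of same-numbered libraries had correlations of -0.39 to 0.18. With the replicate block, members called higher and lower numbered 18 and 3 in 3D against 2D (VEGFA, BNIP3, P4HA1 and MXI1 lost their calls), 9 and 0 in animal against 2D, and 1 and 13 in animal against 3D. With 3 libraries a group, the spread between libraries limits the precision.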
